A study of Zea mays with 2 samples.

Results

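The pericentromeric windows are 10 stretches of 10 Mb, 1 on each chromosome of maize, and the members are the DNA methylation peaks that start inside them. They run from 129 to 139 Mb on chromosome 1, 88 to 98 Mb on chromosome 2, 95 to 105 Mb on chromosome 3, and 100 to 110 Mb on both chromosomes 4 and 5. On chromosomes 6 and 8 they run from 45 to 55 Mb, on chromosome 7 from 53 to 63 Mb, on chromosome 9 from 67 to 77 Mb and on chromosome 10 from 46 to 56 Mb. They hold 20087 of the 353472 embryo peaks and 6622 of the 115621 endosperm peaks. Together they span 100 Mb, or 4.86% of the 2058.5 Mb of the 10 chromosomes. Embryo and endosperm were each represented by 1 MeDIP library, made from B73 ears, a maize inbred, collected 14 days after selfing. MeDIP-seq enriches methylated fragments by immunoprecipitation before sequencing. A peak therefore marks a stretch with many reads and gives no state of single cytosines. There are no replicates, and the number of ears or kernels behind a library is not given in the sources used here. All intervals below therefore cover counting error only, and chromosomes are set side by side as parts of 1 library, not as replicates.

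The pericentromere is the chromatin that flanks the centromere, where the spindle attaches. In maize it is poor in genes, rarely recombines and is packed with nested LTR retrotransposons that carry dense CG and CHG methylation, while maize centromeres themselves hold arrays of the satellite CentC and the centromeric retrotransposon CRM. The endosperm, which feeds the embryo, is known in plants as a tissue that loses DNA methylation at many repeats. The lists hold no annotation of centromeres or repeats, so the windows are named after the rule that set them, and their label was not checked against centromere positions. The window centres lay between 28.4% of the chromosome length, on chromosome 8, and 48.2%, on chromosome 5.

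Methylation peaks were denser in the windows than elsewhere in both tissues. Embryo had 200.9 peaks per Mb in the windows (95% interval 198.1 to 203.7) and 169.3 per Mb in the rest of the chromosomes (168.8 to 169.9). The ratio was 1.19 (1.17 to 1.20), and the window had the higher density on all 10 chromosomes. Endosperm had 66.2 peaks per Mb in the windows (64.6 to 67.8) and 55.1 per Mb in the rest (54.8 to 55.5). Here the ratio was 1.20 (1.17 to 1.23), also with the higher value in the window on all 10 chromosomes.
Embryo density in the rest, which averages over far longer stretches than a window, ran from 166.1 peaks per Mb on chromosome 2 to 173.2 on chromosome 4. In the windows it was 213.2 on chromosome 1, 187.4 on chromosome 2, 182.2 on chromosome 3, 214.1 on chromosome 4 and 210.0 on chromosome 5. It was 213.1 on chromosome 6, 219.1 on chromosome 7, 185.9 on chromosome 8, 185.3 on chromosome 9 and 198.4 on chromosome 10. The windows of chromosomes 2, 3, 8 and 9 thus formed a lower set, and all 10 had intervals of the ratio above 1. The embryo ratio was lowest on chromosome 3 (1.08, 1.03 to 1.13) and highest on chromosome 7 (1.28, 1.23 to 1.34).
In endosperm the windows of chromosomes 1 and 10 were the densest, with 73.6 and 71.9 peaks per Mb against 54.1 and 54.3 in the rest. The window of chromosome 1 had the highest ratio, 1.36 (1.26 to 1.46). The lowest were 1.04 (0.958 to 1.14) on chromosome 3 and 1.07 (0.982 to 1.16) on chromosome 6, the only chromosomes whose interval held 1. Chromosome 6 had 61.8 endosperm peaks per Mb in its window and 57.9 in its rest, the highest rest of the 10. Set only against the 10 Mb on each side, the windows had a smaller embryo excess, 1.09 (1.08 to 1.11), and the interval held 1 on chromosomes 1 (1.04, 0.983 to 1.09), 3 (0.990, 0.936 to 1.05) and 8 (0.997, 0.943 to 1.05). The endosperm ratio was then 1.17 (1.13 to 1.20). Its interval held 1 on chromosomes 3 (1.003, 0.905 to 1.11) and 8 (1.09, 0.991 to 1.20) and no longer on chromosome 6 (1.19, 1.08 to 1.32).

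**Figure D1:**
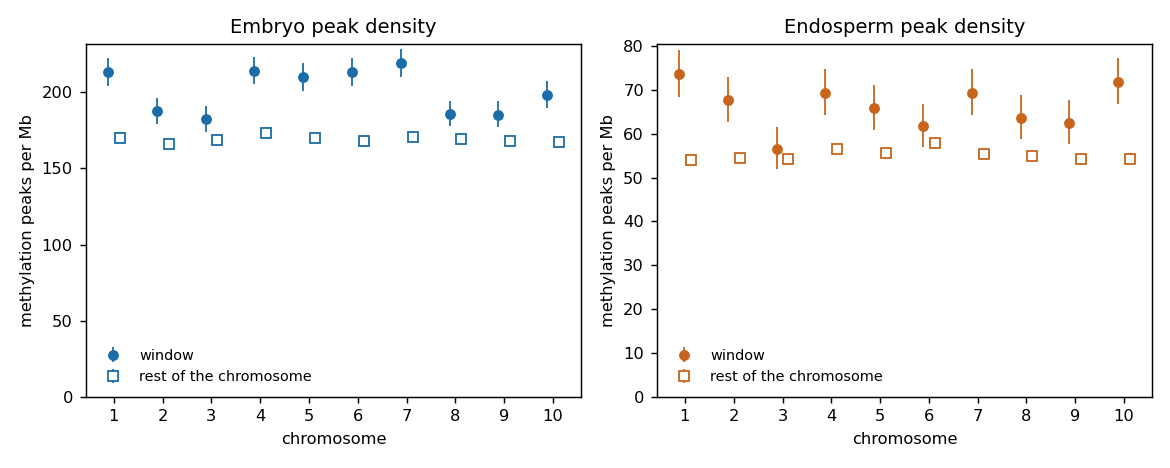
Methylation peaks per Mb (y axis) in the window (filled circles) and the rest (open squares) of chromosomes 1 to 10 (x axis), embryo left and endosperm right, with 95% Poisson intervals. The values of all 10 windows lie above those of their rest in both tissues. In endosperm the window intervals of chromosomes 3 and 6 include the value of the rest.

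The excess lay in peaks with a diffScore below 200 and was largest from 50 to below 100. The diffScore is minus 10 times log10 of the p-value that the peak caller MACS gave a peak, and is used here only within a library. Embryo peaks with a diffScore from 50 to below 100 numbered 125.2 per Mb in the windows and 98.8 per Mb in the rest, a ratio of 1.27 (1.24 to 1.29), and those from 100 to below 200 had a ratio of 1.16 (1.13 to 1.19). In both classes the window was higher on all 10 chromosomes. Embryo peaks of 200 or more were instead sparser in the windows, with 18.2 against 21.0 per Mb, a ratio of 0.867 (0.827 to 0.908). For these strong peaks the window was higher on 0 of the 10 chromosomes.
Endosperm had a ratio of 1.23 (1.20 to 1.27) in the lowest class, again higher in all 10 windows, and of 1.07 (1.002 to 1.15) from 100 to below 200, higher in 6 of 10. Its 188 window peaks of 200 or more gave a ratio of 0.990 (0.850 to 1.15), so at this number a pooled difference in either direction was not detectable. The window was higher on 7 of 10 chromosomes. Chromosome 6 weighed on the pooled value, with 7 of these peaks in its window and 630 of the 3720 in the rest. The median diffScore of embryo peaks was 83.6 in the windows and 88.1 in the rest, and lower in the window on all 10 chromosomes. In endosperm the medians were 66.6 and 67.3, lower in the window on 8 of 10. Neither held against the 10 Mb on each side, where the difference was -0.21 (-1.23 to 0.724) in embryo and 1.27 (0.477 to 2.12), with the higher median in the windows, in endosperm. Of embryo window peaks, 37.7% had a diffScore of at least 100, against 41.5% of all embryo peaks of the series. Of endosperm window peaks, 16.5% did, against 18.9% of all endosperm peaks.

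Set among stretches of 10 Mb laid end to end along the same chromosome, most windows were at or near the top. By embryo peaks the windows of chromosomes 2, 4, 5, 7 and 10 had rank 1, those of 1, 6 and 9 rank 2, that of 3 rank 3 and that of 8 rank 4, among 14 to 29 stretches. The margins were small in places. The chromosome 9 window had 1853 embryo peaks and the densest other stretch 1854, and the chromosome 1 window had 2132 against 2152. By endosperm peaks 8 windows had rank 1. The exceptions were chromosome 6, with rank 3 and 618 peaks against 1170 in the densest stretch, and chromosome 3, with rank 6 of 22 and 566 peaks against 684.

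Around the window centre the tissues had different shapes by number of peaks. Mean embryo density over the 10 chromosomes formed a broad plateau, between 182.6 and 209.4 peaks per 1-Mb bin inside the windows and between 171.9 and 200 in the bins out to 25 Mb on either side. The 2 ranges overlap, so no edge of the embryo plateau stood out at the window borders. Mean endosperm density had a narrow peak in the bin just beyond the centre, with 91.8 ± 27.2 peaks (SD over 10 chromosomes), against 60.4 to 69.4 in the other 9 bins of the window. Embryo had 204.7 ± 25.05 in that bin, within the range of its neighbours. By peaks of at least 1 kb, both tissues were high in that bin. Over the 10 chromosomes embryo had 146 such peaks there, against 5 and 7 in the adjoining bins. Endosperm had 59, against 1 and 11.
The central bin differed widely among the chromosomes. The central bin held 138 endosperm peaks on chromosome 1, 111 on chromosome 2, 115 on chromosome 4, 98 on chromosome 9 and 113 on chromosome 10. It held 83 on chromosome 5, 73 on chromosome 8, 68 on chromosome 6, 63 on chromosome 3 and 56 on chromosome 7. On chromosomes 1, 2, 4, 5, 9 and 10 it was the densest bin of the window. Chromosomes 7 and 8 had theirs elsewhere, with 97 endosperm peaks from 60 to 61 Mb and 97 from 48 to 49 Mb, and on chromosomes 3 and 6 no bin stood out, with maxima of 64 and 68. Over all 100 bins of the windows, endosperm ran from 48 to 138 with a median of 62, and embryo from 148 to 238 with a median of 203.

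**Figure D2:**
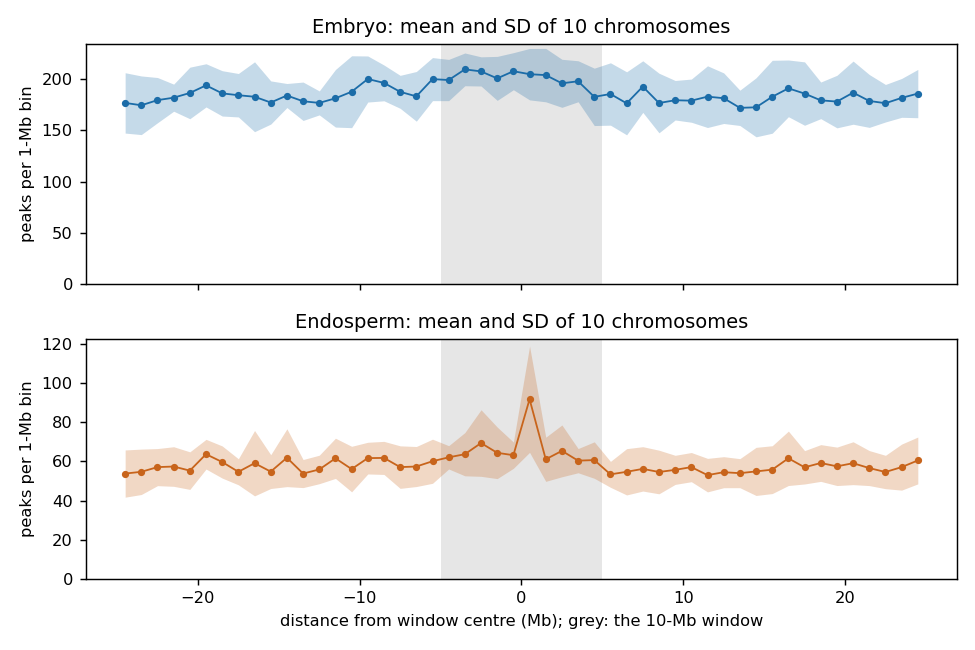
Mean number of peaks per 1-Mb bin (y axis) by distance from the window centre in Mb (x axis), embryo above and endosperm below. The line is the mean and the band the SD over 10 chromosomes, and grey marks the 10-Mb window. Embryo shows a plateau between 182.6 and 209.4 in the window, and endosperm a single bin at 91.8.

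The gaps between neighbouring peaks show where the added density lay. The median gap between embryo peaks was 3266 bp in the windows and 3284 bp in the rest, a ratio of 0.995 (0.972 to 1.02), so the typical spacing did not differ detectably. The long gaps took up less of the windows. The 90th percentile of the embryo gap was 10409 bp in the windows and 13632 bp in the rest, and gaps longer than 20 kb took up 7.38% of the windows and 20.7% of the rest. Gaps under 1 kb made up 22.4% of embryo gaps in the windows and 24.1% in the rest. The longest embryo gap in a window was 81606 bp, on chromosome 9, and the longest of the rest 124021 bp.
In endosperm the median and the longer gaps were shorter in the windows, and the short gaps were not. The 25th percentile was 3683 bp in the windows and 3405 bp in the rest. The median gap was 9548 bp in the windows and 10948 bp in the rest, a ratio of 0.872 (0.839 to 0.909), and lower in the window on 9 of 10 chromosomes. The lowest ratio was 0.716, on chromosome 10, and chromosome 6 had the only ratio above 1, 1.08. Gaps over 20 kb took up 61.4% of the windows and 71.9% of the rest in endosperm.

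Embryo peaks were also spread more evenly in the windows than in the rest, and endosperm peaks, with all bins counted, less evenly. Evenness was described by the variance of the number of peaks per 100 kb divided by its mean, a value that is low when bins hold like numbers. For embryo it was 0.992 over the 1000 bins of the windows and 1.60 over the rest. Within single stretches of 10 Mb, the embryo value of the window was below the median of the other stretches on 9 of 10 chromosomes and the lowest of its chromosome on 6. It ran from 0.524 on chromosome 4 to 1.504 on chromosome 9, the exception. Of the window bins, 1 of 1000 had under 5 embryo peaks, against 75 of 19579 in the rest.
For endosperm the value was 1.96 in the windows and 1.77 in the rest, and only on chromosomes 3 and 6 was the window below the median of its chromosome. With the 39 bins that touch the embryo clusters described below left out, the value of the windows was 1.16 for endosperm and 0.974 for embryo. In each tissue 9 of 10 windows then lay below the median of the stretches of their chromosome. No bins were left out elsewhere, so the sides of that comparison are not alike.

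**Figure D3:**
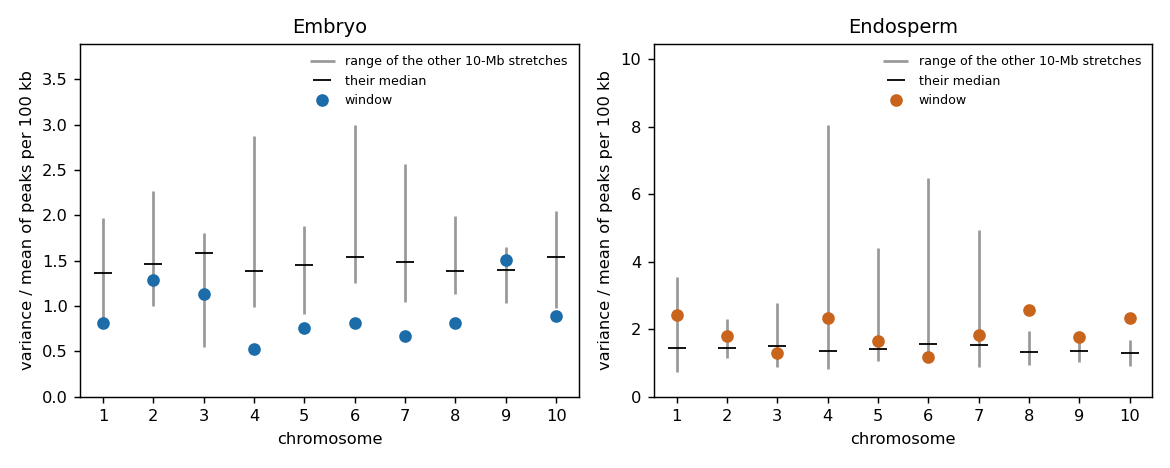
Variance divided by mean of the number of peaks per 100 kb (y axis) for the window of each chromosome (coloured circles, x axis), with the range (grey lines) and median (black dashes) of the other 10-Mb stretches of the chromosome. In embryo, left, 9 of 10 windows lie below the median, and in endosperm, right, 2 of 10 do.

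Peaks in the windows were longer. The median length was 282 bp in the windows and 271 bp in the rest for embryo, and 233 bp and 211 bp for endosperm. The endosperm median was higher in all 10 windows, from 8 bp more on chromosome 3 to 38 bp more on chromosome 1. The embryo median was higher in 9 windows, by up to 33 bp on chromosome 1, and in the chromosome 2 window it was 256 bp against 269 bp. Together with the higher density, this raised the covered share. Embryo peaks covered 6.96% of the windows and 5.35% of the rest, a ratio of 1.299, and endosperm peaks 1.98% and 1.38%, a ratio of 1.44. The window was more covered on all 10 chromosomes in both tissues, most on chromosome 1 (ratio 1.55 in embryo and 1.87 in endosperm). It was more covered by the least on chromosome 2 in embryo (1.07) and chromosome 6 in endosperm (1.01).

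The largest contrast was in broad peaks, those of at least 1 kb. The windows held 320 broad embryo peaks, 1.59% of their embryo peaks against 0.547% of all embryo peaks of the series. Per Mb there were 3.20 in the windows and 0.738 in the rest, a ratio of 4.33 (3.83 to 4.90). For endosperm there were 154 broad peaks in the windows, 2.33% against 1.09% in the series, and 1.54 against 0.456 per Mb, a ratio of 3.37 (2.82 to 4.01). With the clusters described below left out of the windows and the rest, the ratios were 1.07 (0.821 to 1.37) in embryo and 1.07 (0.709 to 1.55) in endosperm. Those clusters are runs of these same broad peaks, so these values cannot show whether an excess existed apart from them. With the windows moved 5 Mb towards the chromosome start, the ratios were 1.57 (1.303 to 1.88) in embryo and 1.11 (0.829 to 1.45) in endosperm.
They were also very uneven among the windows. Embryo had 77 on chromosome 1, 57 on chromosome 7, 44 on chromosome 10, 36 on chromosome 9, 31 on chromosome 8, 29 on chromosome 5 and 19 on chromosome 4, but 11 on chromosome 3, 10 on chromosome 2 and 6 on chromosome 6. Endosperm had 39 on chromosome 7, 28 on chromosome 1, 23 on chromosome 8, 16 on chromosome 9, 14 on each of chromosomes 3 and 5 and 12 on chromosome 10. Chromosomes 2 and 6 had 3 each and chromosome 4 had 2. The density of broad peaks was higher in the window than in the rest on all 10 chromosomes in embryo and on 7 in endosperm. In endosperm it was lower on chromosomes 2, 4 and 6. The embryo ratio was lowest on chromosomes 6 (1.10, from 6 broad window peaks) and 2 (1.42, from 10), and no interval was computed for single chromosomes. The rest of chromosome 6 held 187 of the 894 broad endosperm peaks of the rest.

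Most broad peaks of the windows lay in a few compact clusters, defined as at least 5 broad peaks of 1 library with neighbouring starts within 100 kb. This rule and the length of 1 kb were set after the values had been seen. Over the 10 chromosomes embryo had 30 such clusters, and 13 of them, or 43.3%, started in the windows, which make up 4.86% of the sequence. That share depended on the rule, from 17.0% (15 of 88) with broad peaks from 800 bp to 63.2% (12 of 19) with at least 10 broad peaks per cluster. The 13 clusters span 2.36 Mb, or 2.36% of the windows, and hold 252 of the 320 broad embryo peaks (78.8%). They lay in 8 of the 10 windows, with none on chromosomes 3 and 6. In endosperm 7 of 34 clusters started in the windows, in those of chromosomes 1, 3, 5, 7, 8 and 9, and held 114 of the 154 broad peaks (74.0%). Under the other rules the endosperm share of clusters in the windows ran from 10.7% to 31.6%, against 20.6%. The rest had 17 embryo and 27 endosperm clusters, and 1446 and 894 broad peaks. The share of those peaks inside clusters was not computed. The shares of 78.8% and 74.0% are therefore given for the windows alone and do not show that clustering was particular to them.
The largest embryo cluster lay on chromosome 1 from 134560477 to 134949943 and held 47 broad embryo and 22 broad endosperm peaks. These and later positions count from 1 and follow the coordinates of the lists, whose genome build is not given in the sources used here. On chromosome 9 a cluster from 72207602 to 72625969 held 30 broad embryo and 13 broad endosperm peaks, and on chromosome 8 one from 48156845 to 48303511 held 29 and 23. The chromosome 8 cluster was the most covered by embryo peaks of all 13, with 51.9% of its sequence, and endosperm peaks covered 37.7% of it.
On chromosome 7 there were 3 clusters in the window, from 54774741 to 54865900 with 13 broad embryo peaks, from 60393673 to 60557805 with 22, and from 62340413 to 62420768 with 15. Endosperm had 0 broad peaks in the first, 20 in the next and 13 in the last, which was the most covered by endosperm peaks of all 13, with 41.3%. Clusters on chromosome 5 from 105654938 to 105900197 held 22 and 14 broad peaks of embryo and endosperm, and on chromosome 4 from 105347523 to 105467221 they were 16 and 2. On chromosome 10 the clusters ran from 48780615 to 48884472, with 10 broad embryo and 3 broad endosperm peaks, and from 51465227 to 51630591, with 21 and 4. The other 3 clusters, on chromosome 1 from 131592272 to 131841420 and from 131941976 to 132054173 and on chromosome 2 from 93486731 to 93558438, held 10, 11 and 6 broad embryo peaks and 2, 0 and 0 broad endosperm peaks. In all, 6 of the 13 clusters had their middle within 1 Mb of the window centre.

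Inside the 13 embryo clusters the tissues had nearly equal numbers of peaks, 529 in embryo and 511 in endosperm, a ratio of 1.04 (0.915 to 1.17). In the windows outside them the ratio was 3.20 (3.11 to 3.29), from 19558 and 6111 peaks. The clusters were chosen by embryo peak length, so the values there are not independent of that choice. By covered share embryo was still ahead, with 29.0% of the clusters against 16.8% in endosperm. That ratio was 1.73 in the clusters and 3.97 in the windows outside them. Endosperm had more peaks than embryo in 6 of the 13 clusters and fewer in 7. In the 17 embryo clusters outside the windows the ratio of peak numbers was 1.19 (1.06 to 1.33), so a ratio near 1 was not limited to the clusters of the windows. Endosperm peaks numbered 216.8 per Mb inside the window clusters and 62.6 per Mb in the windows outside them. Embryo had 224.4 and 200.3 per Mb.

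**Figure D4:**
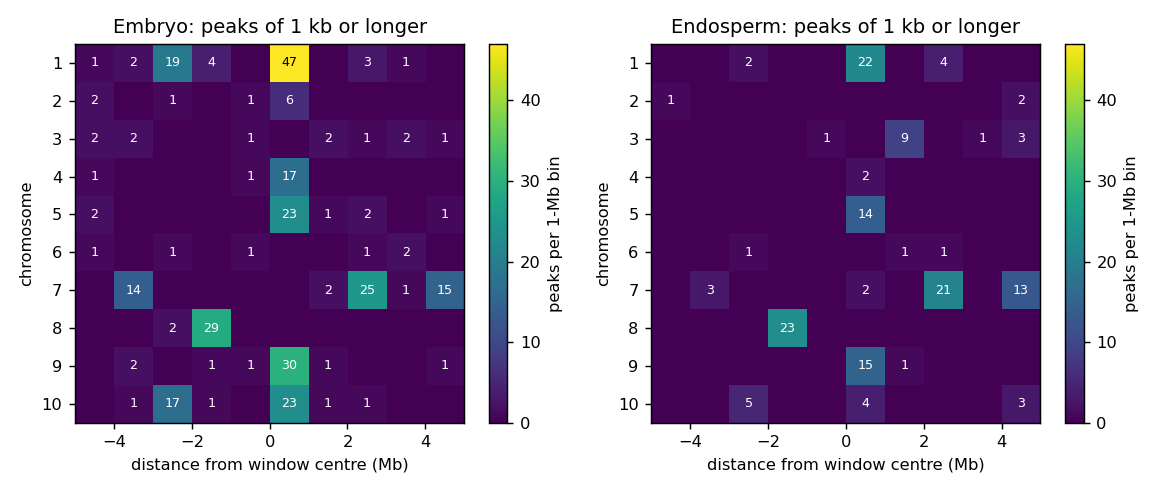
Number of peaks of 1 kb or longer in each 1-Mb bin of the 10 windows, by distance from the window centre (x axis) and chromosome (y axis), embryo left and endosperm right on 1 colour scale. Empty cells hold 0. Single bins stand out, such as that with 47 embryo and 22 endosperm peaks on chromosome 1.

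Among single peaks, the longest of all embryo peaks on the 10 chromosomes lay in the chromosome 5 window, from 105721888 to 105730035, with 8148 bp and a diffScore of 117.9. The longest endosperm peak of the windows, from 105721912 to 105725592 with 3681 bp and a diffScore of 333.0, lay under it. Of the longest peak of each window, next in embryo were those on chromosome 9 from 72309665 to 72316430 (6766 bp, diffScore 491.5) and on chromosome 8 from 48277814 to 48283336 (5523 bp, 436.6). Next in endosperm were those on chromosome 7 from 62372570 to 62376237 (3668 bp, 100.8) and on chromosome 9 from 72309772 to 72312975 (3204 bp, 741.7). A long peak was thus not always a strong one.
The longest embryo peaks of the 10 windows measured between 1448 bp, on chromosome 6, and 8148 bp, and the longest endosperm peaks between 1168 bp, on chromosome 4, and 3681 bp. Of all broad window peaks, 82.5% in embryo and 90.3% in endosperm overlapped a peak of the other tissue (74.9% and 87.0% in the rest). Of the 20 peaks that were the longest of their window in a library, 19 did. The exception was the embryo peak on chromosome 10 from 48867002 to 48871186, with 4185 bp and a diffScore of only 63.4, which was 4072 bp from the closest endosperm peak.
Of the peak with the highest diffScore in each window, the top 3 in embryo were on chromosome 9 from 72226097 to 72229297 (2415.8), on chromosome 3 from 104727124 to 104727873 (2029.3) and on chromosome 2 from 97708985 to 97709872 (1651.6). In endosperm they were on chromosome 3 from 103447357 to 103449811 (3100.0), on chromosome 9 from 72226118 to 72228084 (1137.3) and on chromosome 2 from 97708991 to 97709859 (953.1). The value of 3100 is the highest in the list and is shared by 13 endosperm peaks, of which this is the only one in the windows. The chromosome 9 peaks of the tissues overlap each other, as do those on chromosome 2. Each of the 20 peaks with the highest diffScore of their window in a library overlapped a peak of the other tissue.

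Peaks of the windows overlapped those of the other tissue a little less often. Of endosperm window peaks, 4725 (71.4%, 95% Wilson interval 70.3 to 72.4) shared at least 1 bp with an embryo peak, against 74.4% (74.2 to 74.7) in the rest and 74.3% in the whole series. The share was lower in the window on 9 of 10 chromosomes, by up to 6.17 percentage points on chromosome 8 (68.2% against 74.4%), and 0.303 points higher on chromosome 7. Of embryo window peaks, 4564 (22.7%, 22.1 to 23.3) overlapped an endosperm peak, against 23.8% (23.6 to 23.9) in the rest and 23.8% in the series, and the share was lower on 7 of 10 chromosomes. Against only the 10 Mb on each side, the endosperm share was 0.0453 percentage points higher and the embryo share 0.899 points higher in the windows, so neither deficit held against the flanks.
The share rose steeply with the diffScore in both parts. With window peaks cut into 10 equal groups by diffScore, the overlap of embryo peaks rose from 8.22% in the lowest group to 60.8% in the highest, and in rest peaks of the same scores from 8.49% to 58.8%. With the rest weighted to the scores of the windows, the embryo share was 0.717 percentage points higher in the windows, where it was 1.05 points lower without weighting. For endosperm it rose from 52.0% to 96.5% in the windows and from 58.0% to 95.6% in the rest. The endosperm share was lower in the windows in 9 of the 10 groups, and only the strongest group was not lower. At a diffScore of at least 100, 94.1% of endosperm window peaks (92.6 to 95.4) and 93.8% of those in the rest (93.5 to 94.1) overlapped an embryo peak of any score, with intervals that overlap.

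**Figure D5:**
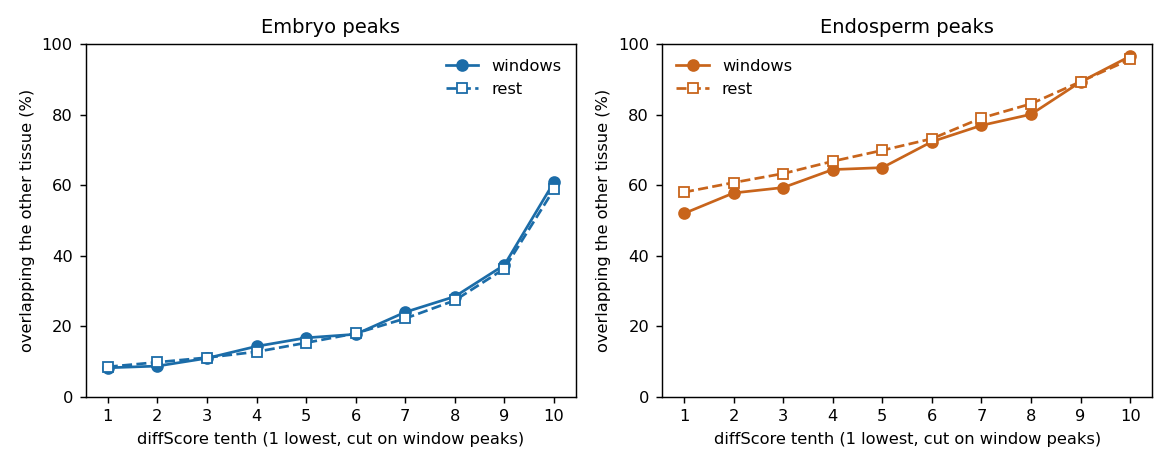
Share of peaks that overlap a peak of the other tissue in percent (y axis) by 10 groups of rising diffScore, cut on the window peaks (x axis), for embryo left and endosperm right. Filled circles are the windows and open squares the rest. In endosperm the windows lie below the rest in 9 of 10 groups, while the embryo lines nearly coincide.

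The lower endosperm share stood beside a higher covered share of embryo in the windows, 6.96% against 5.35%. Broad peaks went the other way. Of the 154 broad endosperm peaks in the windows, 90.3% (84.6 to 94.0) overlapped an embryo peak, against 87.0% (84.7 to 89.1) in the rest, with intervals that overlap. Of the 320 broad embryo peaks, 82.5% (78.0 to 86.3) overlapped an endosperm peak, against 74.9% (72.6 to 77.1). Window peaks of endosperm without an overlap were a median of 1377 bp from the closest embryo peak and those of the rest 1329 bp.
When overlapping peaks of both tissues were joined, the windows held 21900 methylation regions. Of these, 4480 (20.5%, 19.9 to 21.0) had peaks of both tissues, 15523 (70.9%, 70.3 to 71.5) embryo alone and 1897 (8.66%, 8.30 to 9.04) endosperm alone. In the rest the shares were 21.6%, 70.7% and 7.71% (7.63 to 7.80). Regions with endosperm alone were thus slightly more frequent in the windows and regions with both slightly less, while the intervals of the embryo share overlapped. The median length of regions with both was 382 bp in the windows and 365 bp in the rest.

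The ratio of embryo to endosperm peaks was 3.03 (2.95 to 3.12) in the windows and 3.07 (3.05 to 3.09) in the rest, and the window ratio was 0.987 times that of the rest (0.959 to 1.02). This comparison depended on the position of the windows and on the rest. The value was 0.938 (0.906 to 0.971) against the 10 Mb on each side, 0.949 (0.913 to 0.987) for the central 5 Mb and 1.05 (1.02 to 1.08) with the windows moved 5 Mb towards the chromosome start. It was higher in the window on 5 chromosomes and lower on 5. The window ratio was highest on chromosome 6, with 2131 embryo and 618 endosperm peaks (3.45, 3.15 to 3.78), against 2.90 (2.84 to 2.97) in its rest. That rest had the lowest ratio of all rests, and the others ran from 3.05 to 3.14. It included a 10-Mb stretch with 1170 endosperm peaks, against a median of 541 over the stretches of chromosome 6 other than the window. The window ratio was lowest on chromosome 10, with 1984 and 719 peaks (2.76, 2.53 to 3.01), against 3.08 (3.003 to 3.163) in its rest. Next was chromosome 2, with 1874 and 677 peaks (2.77, 2.53 to 3.03), against 3.05 (2.98 to 3.11). With the clusters of broad peaks left out everywhere, the window ratio was 3.20, 1.04 times that of the rest.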

How the data were processed

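The lists come from 1 MeDIP-seq library of each tissue. Read cleaning used fastx, and the authors' alignment used Bowtie2 with default settings (version 2.0.5 in the submitters' processing notes). MACS then gave 1 peak list per library. Under these settings a read with several equally good sites is placed at 1 of them, which bears on repeats. The score in the deposited lists is the diffScore, minus 10 times log10 of the MACS p-value, and is at least 50. It was used within a list only. The genome build and an input library are not given in the sources used here. The lists hold no read numbers, so the depth behind a peak is unknown from them.

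A peak belonged to a window by its start. The rest of a chromosome was its length, up to the end of its last peak in either list, less the window. Peaks sharing at least 1 bp overlapped. A gap is the distance between neighbouring peaks of 1 list that both start in the window, or both on the same side of it. Peaks of at least 1 kb were called broad, and at least 5 of them with neighbouring starts within 100 kb made a cluster. Ratios of counts have 95% exact binomial intervals, densities exact Poisson intervals and shares 95% Wilson intervals, all for counting error only. With 1 library per tissue, no test was made. The windows and measures were chosen with earlier results of these data known. Medians have order-statistic intervals. Named peaks were the 3 highest by diffScore and the 3 longest in each list, taken from the highest and longest peak of each window, and further peaks and clusters were named after their values were seen.

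Measures were computed in Python 3.11.15 (pandas 2.3.3, numpy 2.4.6, scipy 1.17.1) and plotted with matplotlib 3.10.9. All 11 checks on simulated lists and against bedtools 2.31.1 gave the known number within the tolerance set. Other window positions and widths, rests, minimum diffScores and overlap rules were tried. External gene annotation and sequence were not used here, because the build of the lists is not known. The study itself lists methylated gene regions with the position, read number and diffScore of their peaks, and these were not used either.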

Additional observations from a re-analysis of the deposited data

Results flagged for a closer look

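Some windows moved in opposite directions in the tissues. With 1 library each, none of these differences was tested. On chromosome 2 the median peak length of the window minus that of the rest was -13 bp for embryo peaks but 10 bp for endosperm peaks. The median diffScore of the window minus that of the rest was -4.18 in embryo and 0.68 in endosperm on chromosome 1, and -3.59 and 1.26 on chromosome 7. The density of broad peaks in the window over that in the rest was 1.42 in embryo and 0.896 in endosperm on chromosome 2, 2.68 and 0.514 on chromosome 4, and 1.10 and 0.255 on chromosome 6. The endosperm values of chromosomes 2, 4 and 6 rest on 3, 2 and 3 broad peaks in the window. On chromosome 6 the rest held 187 broad endosperm peaks. Clusters from 10111711 to 20710294 held 26, 37, 43, 19 and 14 of them, so the ratio of 0.255 also depends on this dense stretch of the rest. The ratio without that stretch was not computed. The variance over mean of peak numbers per 100 kb was 0.992 in embryo and 1.96 in endosperm over the windows, below the value of the rest in embryo and above it in endosperm. Peaks on sequences other than the 10 chromosomes, which have no window, numbered 1724 in embryo and 1044 in endosperm, and they were not used in the comparisons.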

How the results depend on the processing

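The settings with a diffScore of at least 200, without clusters and without chromosome 6 from 10 to 13 Mb, and other rules for clusters, were chosen after seeing the data. Differences and ratios are of the windows against the rest, and values that moved by more than counting error are given. No paired analysis was possible because each tissue has a single library. In the central 5 Mb of each window, the endosperm density ratio was 1.26, the covered share ratio 1.38 in embryo and 1.65 in endosperm and the broad peak density ratio 6.58 in embryo and 5.04 in endosperm. The endosperm median gap ratio was 0.798, the median length difference in bp 14 in embryo and 32 in endosperm and the overlap difference in percentage points -0.0848 in embryo and -1.61 in endosperm. The embryo to endosperm ratio of the windows was 2.92 and that ratio relative to the rest 0.949. With the windows moved 5 Mb towards the chromosome start, the endosperm density ratio was 1.12, the covered share ratio 1.21 in embryo and 1.15 in endosperm and the broad peak density ratio 1.57 in embryo and 1.11 in endosperm. The endosperm median gap ratio was 0.989, the median length difference in bp 7 in embryo and 12 in endosperm and the endosperm median diffScore difference -1.88. The embryo overlap difference in percentage points was -1.69, the embryo to endosperm ratio of the windows 3.21 and that ratio relative to the rest 1.05. With the windows moved 5 Mb towards the chromosome end, the density ratio was 1.12 in embryo and 1.11 in endosperm, the covered share ratio 1.19 in embryo and 1.27 in endosperm and the embryo broad peak density ratio 3.11. The median gap ratio was 1.03 in embryo and 0.932 in endosperm, the median length difference in bp 7 in embryo and 13 in endosperm and the endosperm median diffScore difference -1.53. Against the 10 Mb on each side, the density ratio was 1.09 in embryo and 1.17 in endosperm, the embryo covered share ratio 1.20 and the embryo broad peak density ratio 5. The embryo median gap ratio was 0.951, the median diffScore difference -0.21 in embryo and 1.27 in endosperm and the overlap difference in percentage points 0.899 in embryo and 0.0453 in endosperm. The embryo to endosperm ratio relative to the rest was 0.938. With a diffScore of at least 100 in both lists, the density ratio was 1.07 in embryo and 1.06 in endosperm, the covered share ratio 1.22 in embryo and 1.38 in endosperm and the broad peak density ratio 3.797 in embryo and 2.75 in endosperm. The endosperm median gap ratio was 0.813, the median length difference in bp 16 in embryo and 51 in endosperm and the median diffScore difference -7.36 in embryo and -4.79 in endosperm. The endosperm overlap difference in percentage points was 0.0129 and the embryo to endosperm ratio of the windows 6.93. With a diffScore of at least 200, the density ratio was 0.867 in embryo and 0.990 in endosperm, the covered share ratio 1.10 in embryo and 1.36 in endosperm and the broad peak density ratio 3.24 in embryo and 2.23 in endosperm. The median gap ratio was 1.16 in embryo and 0.302 in endosperm, the median length difference in bp 46 in embryo and 182 in endosperm and the median diffScore difference -7.74 in embryo and 10.9 in endosperm. The overlap difference in percentage points was 1.299 in embryo and 5.84 in endosperm, the embryo to endosperm ratio of the windows 9.69 and that ratio relative to the rest 0.876. Without the clusters of broad peaks, the endosperm density ratio was 1.15, the covered share ratio 1.21 in embryo and 1.21 in endosperm and the broad peak density ratio 1.07 in embryo and 1.07 in endosperm. The endosperm median gap ratio was 0.943, the median length difference in bp 8 in embryo and 16 in endosperm and the endosperm median diffScore difference -1.49. The overlap difference in percentage points was -1.95 in embryo and -4.53 in endosperm, the embryo to endosperm ratio of the windows 3.20 and that ratio relative to the rest 1.04. With peaks within 500 bp joined, the embryo median gap ratio was 0.951 and the embryo to endosperm ratio of the windows 2.84. With the rest weighted to the diffScores of the windows, the embryo overlap difference was 0.717 points, against -1.05 unweighted. With at least 3 broad peaks per cluster, endosperm had 12 clusters in the windows, and with broad peaks from 800 bp 11. With each chromosome left out in turn, the covered share ratio ran from 1.27 to 1.32 in embryo and 1.39 to 1.49 in endosperm, the broad peak density ratio from 3.70 to 4.64 and 2.80 to 4.27, and the embryo median length difference from 9 to 14 bp. On single chromosomes the embryo density ratio fell below 1 with a diffScore of at least 100 on chromosomes 2 (0.967), 3 (0.966) and 9 (0.984), against the flanks on chromosomes 3 (0.990) and 8 (0.997), and with windows moved towards the end on chromosome 9 (0.910). The endosperm ratio did so with a diffScore of at least 100 on chromosomes 3 (0.909), 5 (0.970), 6 (0.740) and 9 (0.906), with windows moved towards the end on chromosomes 6 (0.944) and 9 (0.979), and with windows moved towards the start on chromosome 3 (0.998). The other 222 values of the pooled results stayed within counting error, those by peak midpoint, other overlap rules and masked empty stretches among them. The causes of the shifts were not tested. The deposited lists hold no read numbers, and those that the study gives for peaks in gene regions were not used, so what depth limits was not assessed.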

Other observations

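Clusters of broad peaks also lay outside the windows, 17 of embryo and 27 of endosperm. Those on chromosomes 3, 6 and 7 below are examples, and other chromosomes had some too. On chromosome 3, whose window had no embryo cluster, embryo clusters with 7 and 20 broad embryo peaks ran from 83119249 to 83222243 and from 85372371 to 85589446, before the start of the window, and held 0 and 5 broad endosperm peaks. On chromosome 7, whose window had 3 embryo clusters, a further one from 22722899 to 23212354 held 40 broad embryo and 5 broad endosperm peaks. On chromosome 6, whose window had no cluster of either tissue, endosperm had 5 clusters of at least 14 broad peaks from 10111711 to 20710294, where embryo had between 0 and 3 broad peaks in each. These clusters were named after their values were seen.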
